A study of Mus musculus with 12 samples.

Results

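CTCF peaks were examined in the 4 Hox clusters of the mouse in brain, heart and lung of E18.5 embryos. The peaks were those whose summit lay between the first and the last Hox gene of a cluster or within 20 kb of either end, with 38 Hox genes setting the ends. These were 149 of the 183882 peaks in 6 lists, and they joined into 39 of the 56248 sites formed by merging overlapping peaks over the lists. The wild-type group and the mutant group shared the C57BL/6 background of the labels (C57BL/6 N in the study's methods), and the mutant embryos were homozygous for the R567W change in Ctcf, introduced by CRISPR/Cas9 editing. Each organ and genotype was represented by 1 CTCF ChIP library and 1 input library, the inputs entered no comparison here, and no difference below has a replicate check. Human chromatin of the kidney-derived line HEK293T had been spiked into the ChIPs in equal amounts, but spike-in factors do not enter a peak list. The chromatin came from whole organs of constitutive mutants, so a level is an average over cells, and fewer cells with CTCF at a site cannot be told apart from less CTCF per cell. No expression was measured in these lists, so the organ labels could not be checked against marker genes. Whether an organ's chromatin came from a single embryo or a pool is not given in the sources used here.

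Hox genes encode homeodomain transcription factors that give cells their position along the body axis. They sit in clusters in which all genes point the same way, and their order from 3′ to 5′ follows the order in which they are switched on in time and along the body. CTCF is a zinc-finger protein that, with cohesin, anchors chromatin loops, and in Hox clusters it is known to separate active from Polycomb-silenced genes. Its core motif has a direction, and loops form mostly between motifs that point towards each other. R567W changes an amino acid in the last zinc finger, at the end of the protein that contacts an upstream motif found beside some core motifs.

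Every cluster held a CTCF site in the gap just 3′ of paralogue 9. The sites lay between Hoxa9 and Hoxa7, Hoxb9 and Hoxb8, Hoxc9 and Hoxc8, and Hoxd9 and Hoxd8, and each had a peak in all 6 lists. Their core motifs all pointed in the direction of the genes. The sequences are shown because they let the 4 sites be compared. Each is GRCm38 sequence of the RefSeq assembly, read 5′ to 3′ on the strand of the motif, with the core motif of 19 bases in capitals after 30 bases of upstream flank.
Hoxa9-Hoxa7 (chr6:52221805-52221853, minus strand): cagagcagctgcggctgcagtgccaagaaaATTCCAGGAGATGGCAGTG
Hoxb9-Hoxb8 (chr11:96278915-96278963, plus strand): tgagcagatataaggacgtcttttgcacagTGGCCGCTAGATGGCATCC
Hoxc9-Hoxc8 (chr15:102987560-102987608, plus strand): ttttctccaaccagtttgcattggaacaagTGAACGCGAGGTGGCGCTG
Hoxd9-Hoxd8 (chr2:74702362-74702410, plus strand): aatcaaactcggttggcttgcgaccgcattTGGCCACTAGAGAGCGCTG
Between 10 and 12 of the 19 core bases were identical in any pair of these sites, and 3 to 10 of the 30 flanking bases. Over all 105 pairs of the 15 sites printed here the ranges were 6 to 15 and 3 to 17, so the shared position did not go with a closer sequence. All 4 lay in intergenic sequence of the annotation, 3099 bp from the nearest Hox start (Hoxa7), 2941 bp (Hoxb8), 3004 bp (Hoxc8) and 2213 bp (Hoxd8).

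The strength of a peak is given as its level, the summit pileup divided by the lowest local background of the same list, which approximates how many times the summit exceeded the genome background. The median pileup of a list ran from 29 to 55 and its lowest background from 1.42 to 2.02, so a level of 20 rests on few reads, and the counting intervals below cover that sampling error only. Pairs of levels give the wild type first and the mutant second. At the Hoxa9-Hoxa7 site the level was 88.7 and 89.6 (brain), 28.2 and 24.97 (heart) and 164 and 188 (lung). These values stood between the 86.2 and 98.1 percentile of their lists. Hoxa9 and Hoxa7, to either side, are posterior and mid-trunk genes, and Hoxa9 is also a gene of blood progenitors. At the Hoxb9-Hoxb8 site the level was 51.1 and 106 (brain), 20.2 and 26.0 (heart) and 122 and 125 (lung). Its brain ratio, a log2 change of 1.06 (95% counting interval 0.69 to 1.44), was the highest of the Hox sites in brain, and its heart ratio of 0.37 (-0.28 to 1.03) the highest in heart. At the Hoxc9-Hoxc8 site, between genes that pattern the trunk, the level was 61.7 and 55.4 (brain), 24.8 and 17.2 (heart) and 113 and 110 (lung). Its heart log2 ratio of -0.53 (-1.23 to 0.16) was the lowest of the Hox sites in that organ, with an interval that includes 0. At the Hoxd9-Hoxd8 site the level was 55.2 and 75.2 (brain), 24.8 and 18.2 (heart) and 108 and 108 (lung). Outside Hoxa, the percentiles of these sites ran from 56.4 (Hoxc9-Hoxc8, mutant heart) to 96.7 (Hoxb9-Hoxb8, mutant brain). In lung, the counting intervals of all 4 sites included 0, and those of Hoxa9-Hoxa7, Hoxb9-Hoxb8 and Hoxd9-Hoxd8 lay wholly above the median of all shared lung sites, -0.36.

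**Figure D1:**
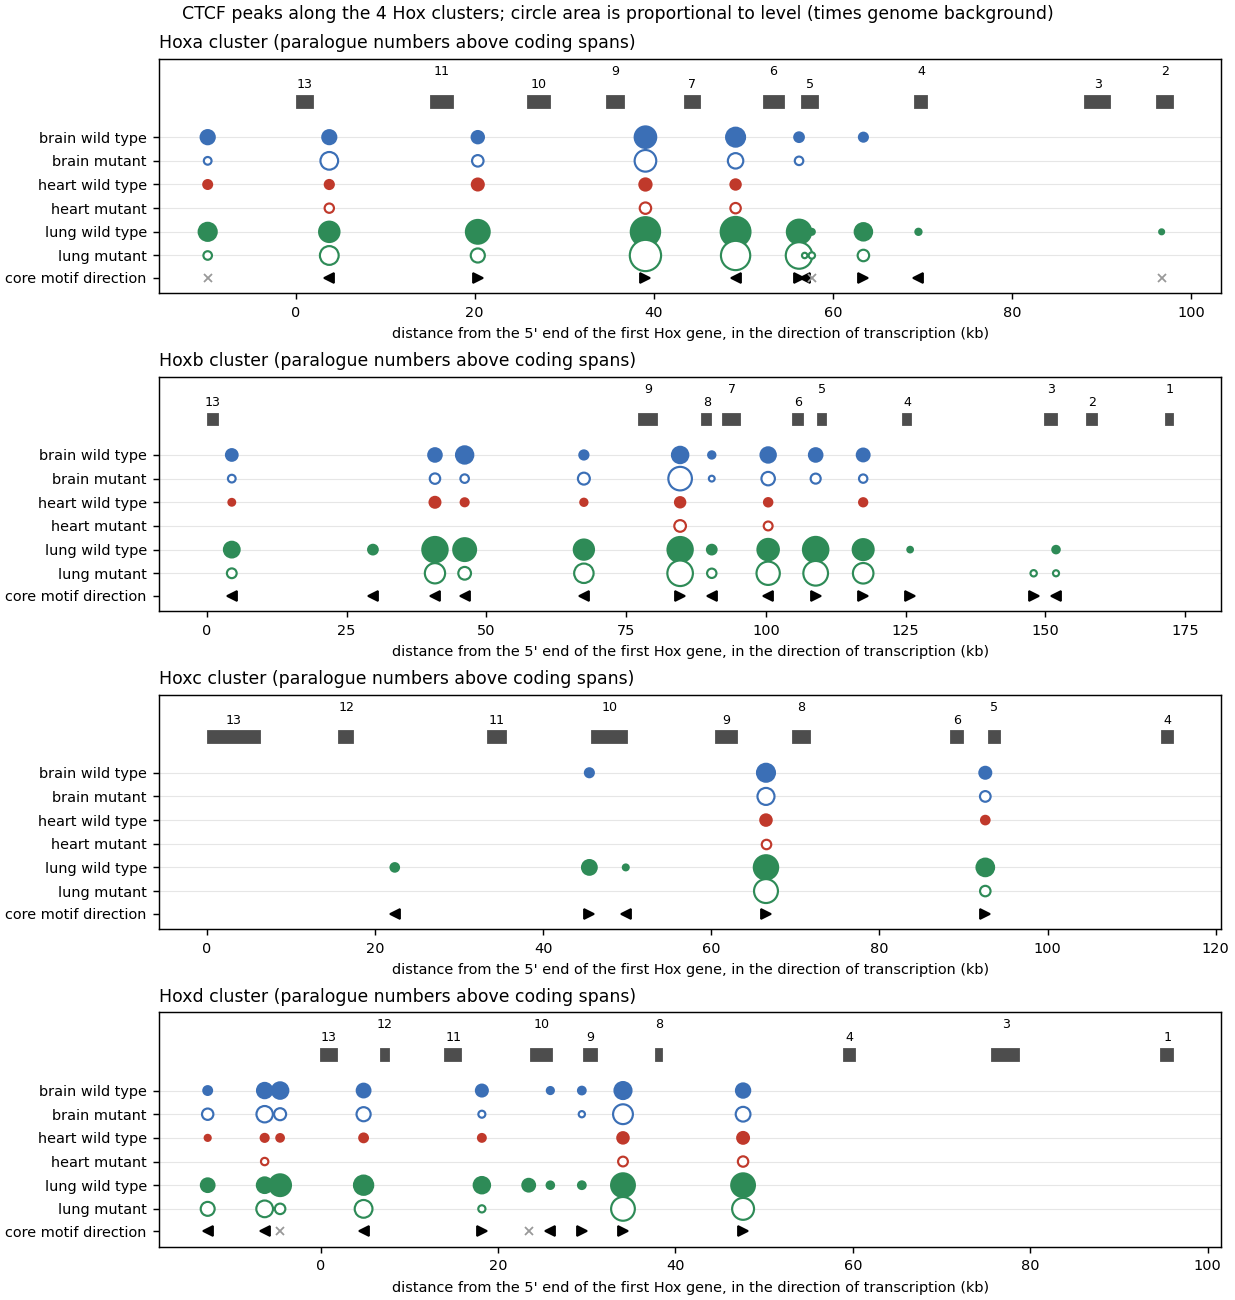
CTCF peaks along each Hox cluster, by distance in kb from the 5′ end of the first gene in the direction of transcription. Rows are the 6 lists, filled circles wild type and open circles mutant, with circle area proportional to level; triangles give the direction of the core motif (right: with the genes) and crosses mark sites without one. Each cluster has a column of 6 circles just 3′ of paralogue 9, and the 3′ ends of the clusters carry few and small circles.

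Across the clusters, 11 sites lay in Hoxa, 13 in Hoxb, 5 in Hoxc and 10 in Hoxd. The density of Hox peaks was 2.75 to 4.21 times that of the genome in the 6 lists, over windows of 138 kb, 214 kb, 156 kb and 137 kb. The peaks clustered towards the 5′ and middle parts. No list had a peak 3′ of the coding sequence of Hoxa2, Hoxb3, Hoxc5 or the Hoxd8-Hoxd4 gap, up to the end of each window. Of the 39 summits, 16 were intergenic, 10 intronic, 7 in non-coding exon sequence and 6 in coding exons.

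The wild-type sites were nested by organ. All 21 wild-type heart sites had a wild-type brain peak, and all 28 wild-type brain sites had a wild-type lung peak. Among the wild-type lists, this left 9 of the 37 lung sites in lung alone, of which 7 had no mutant peak either. Over the whole lists, 5.76% of wild-type heart peaks lacked a brain peak and 13.9% of wild-type brain peaks lacked a lung peak. The lists differ in length (21059, 36034 and 44386 peaks), and the part of this in the nesting was not tested. The 7 brain sites without a heart peak were those at Hoxa6-Hoxa5, Hoxa5-Hoxa4, Hoxb8-Hoxb7, Hoxb6-Hoxb5, Hoxc11-Hoxc10, within Hoxd10 and Hoxd10-Hoxd9. In the mutant, all 9 heart sites had a brain peak, and 24 of the 25 brain sites had a lung peak, the exception being Hoxd10-Hoxd9. Over the whole mutant lists, 1.35% of heart peaks lacked a brain peak and 30.3% of brain peaks lacked a lung peak.

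Of the 21 sites listed in every wild-type organ, 21 had a peak in mutant brain, 21 in mutant lung and 9 in mutant heart, where 93.6%, 93.4% and 53.7% of all such sites had one. The 9 sites in all 6 lists were the 4 sites 3′ of paralogue 9 together with Hoxa13-Hoxa11, Hoxa7-Hoxa6, Hoxb7-Hoxb6, the second of the 3 sites 5′ of Hoxd13, and Hoxd8-Hoxd4. Their sequences are shown as the sites that every library retained.
Hoxa13-Hoxa11 (chr6:52257088-52257136, plus strand, against the genes): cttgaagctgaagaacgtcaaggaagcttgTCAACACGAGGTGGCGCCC
Hoxa7-Hoxa6 (chr6:52211691-52211739, plus strand, against the genes): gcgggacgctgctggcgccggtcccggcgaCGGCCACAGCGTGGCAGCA
Hoxb7-Hoxb6 (chr11:96294694-96294742, minus strand, against the genes): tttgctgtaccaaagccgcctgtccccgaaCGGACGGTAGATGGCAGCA
5′ of Hoxd13 (chr2:74661997-74662045, minus strand, against the genes): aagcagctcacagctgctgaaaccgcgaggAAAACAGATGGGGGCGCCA
Hoxd8-Hoxd4 (chr2:74715888-74715936, plus strand, with the genes): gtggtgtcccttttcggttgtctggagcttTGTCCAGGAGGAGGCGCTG
The Hoxa13-Hoxa11 site lay in an exon of the non-coding gene 9530018H14Rik, between genes needed for digits and for the forearm. Its level was 37.6 and 59.9 (brain), 15.6 and 16.6 (heart) and 79.3 and 67.4 (lung). The brain ratio was a log2 change of 0.67 (0.22 to 1.13). At Hoxa7-Hoxa6, within an intron of overlapping Hoxa3 and Hoxaas3 transcripts, the level was 68.7 and 45.5 (brain), 20.2 and 20.8 (heart) and 170 and 164 (lung). The wild-type lung value of 170 was the highest wild-type level of all Hox sites. Brain was the organ in which its genotypes stood apart, with a log2 ratio of -0.59 (-1.003 to -0.19).
At Hoxb7-Hoxb6, in an intron of Hoxb6 and Hoxb5os, the level was 44.6 and 34.6 (brain), 13.3 and 15.1 (heart) and 87.8 and 104 (lung). The site 5′ of Hoxd13 lay 6307 bp before that gene and 2446 bp from the nearest start of Evx2, an even-skipped homeobox gene that neighbours the cluster. Its level was 44.6 and 51.5 (brain), 12.1 and 10.4 (heart) and 46.5 and 53.4 (lung). In heart and in lung it was the weakest of the 9 sites in both genotypes. At Hoxd8-Hoxd4, in an exon of the antisense transcript Hoxd3os1, the level was 38.8 and 41.6 (brain), 26.5 and 20.8 (heart) and 107 and 92.0 (lung). The counting intervals of the last 3 sites included 0 in every organ, and in lung those of Hoxb7-Hoxb6 and of the site 5′ of Hoxd13 lay wholly above the median of all shared sites.

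**Figure D2:**
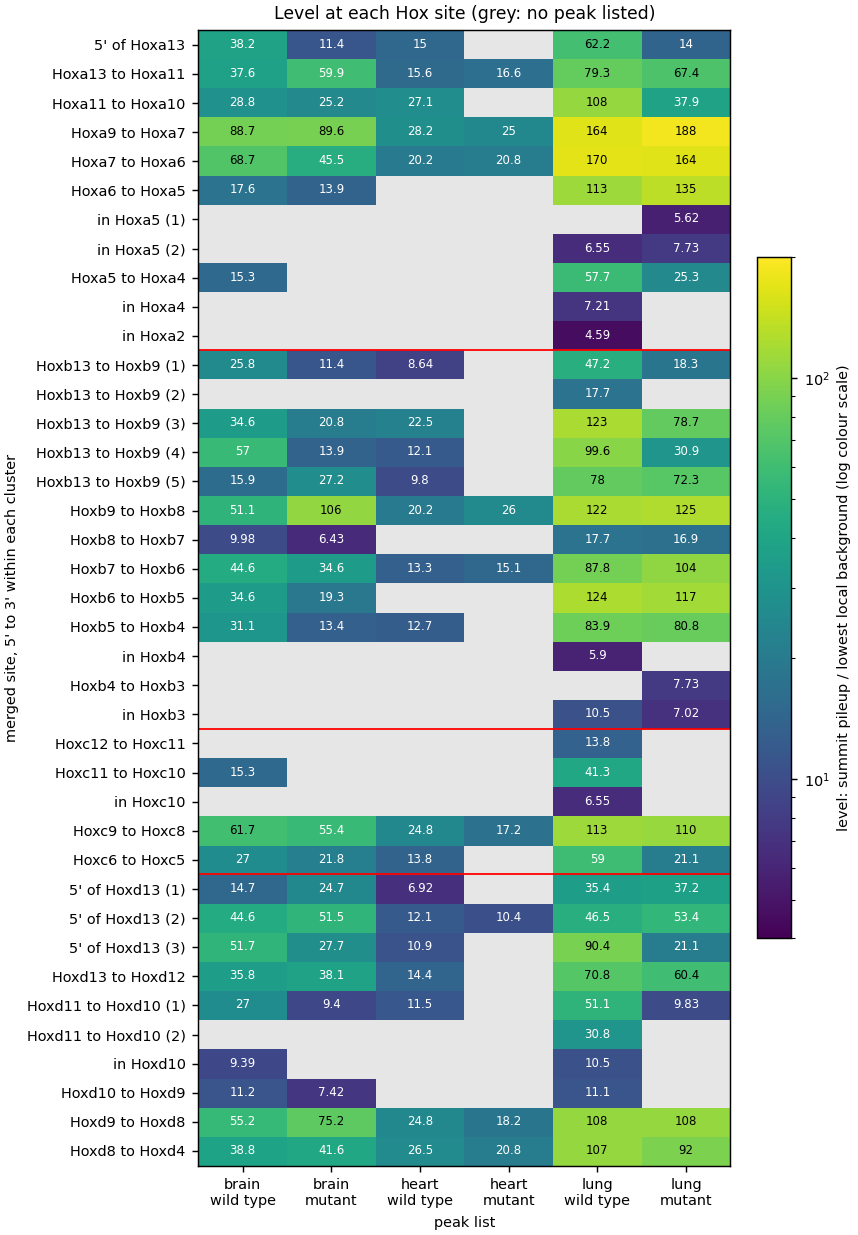
Level of each merged Hox site (rows, 5′ to 3′ within each cluster) in the 6 peak lists (columns), on a log colour scale with the value printed and grey where no peak was listed. The mutant heart column is filled in 9 rows against 21 in wild-type heart, and the 6 coding-exon rows are filled mainly in lung, at levels of 5.62 to 10.5.

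Fewer Hox peaks were listed in the mutant in each organ. Brain had 28 wild-type and 25 mutant ones, heart 21 and 9, and lung 37 and 29. The whole lists held 36034 and 38390 peaks (brain), 21059 and 11515 (heart) and 44386 and 32498 (lung), so the mutant list was the shorter one in heart and lung and the longer one in brain. By cluster, Hoxa had 7 and 6 (brain), 5 and 3 (heart) and 10 and 9 (lung). Hoxb had 9 and 9, 7 and 2, and 12 and 11 in the same order, Hoxc 3 and 2, 2 and 1, and 5 and 2, and Hoxd 9 and 8, 7 and 3, and 10 and 7. With both lists of an organ reduced to the same length by q-value, the Hox peaks numbered 28 and 25 (brain), 9 and 9 (heart) and 26 and 29 (lung), so the lower mutant number held in brain alone.

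In brain, 25 of the 28 wild-type Hox peaks had a mutant peak, 89.3% (95% Wilson interval 72.8 to 96.3), where 81.5% of all wild-type brain peaks had one. In heart it was 9 of 21, 42.9% (24.5 to 63.5), against 50.6% of the list. Lung kept 27 of 37, 73.0% (57.0 to 84.6), against 67.0%. Each interval includes the share of its whole list. With lists of equal length, 7 of 9 wild-type Hox peaks in heart (77.8%) and 24 of 26 in lung (92.3%) had a mutant peak, where 71.3% and 81.1% of the lists did. Among Hox peaks with a pileup at or above the list median, a mutant peak was present at 20 of 20 (brain), 6 of 8 (heart) and 23 of 24 (lung), against 96.3%, 74.0% and 93.0% of the lists. Hox peaks thus had a counterpart about as often as peaks elsewhere at like strength. The mutant lists added little. No mutant Hox peak of 25 in brain or 9 in heart was without a wild-type peak, and 2 of 29 were in lung, where the lists gave 24.5%, 7.12% and 9.11%. By strength, a wild-type peak was present at 17 of 17 mutant brain Hox peaks at or above the median pileup and 8 of 8 under it, against 98.1% and 52.6% of the list.

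**Figure D3:**
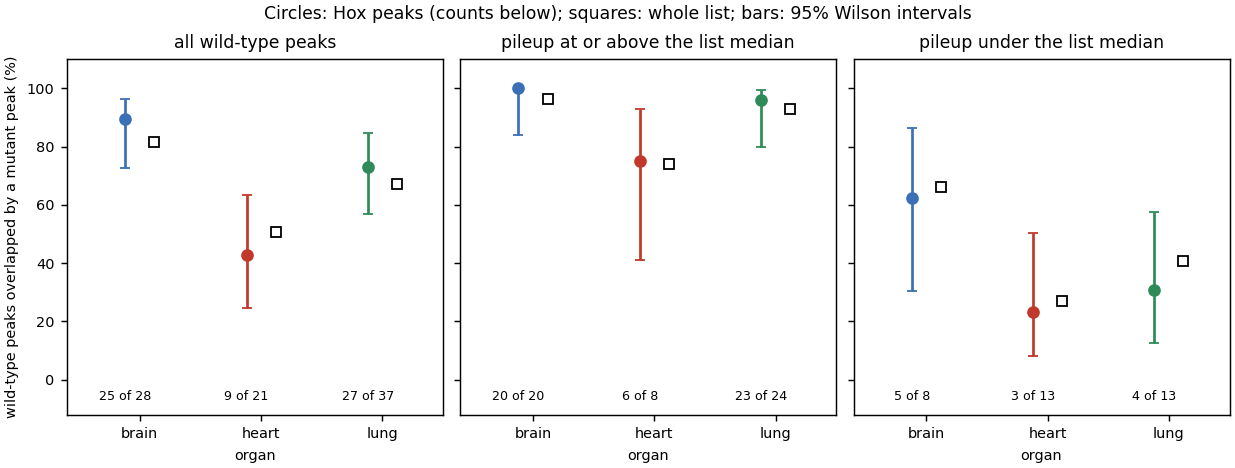
Share of wild-type peaks overlapped by a mutant peak (percent, y axis) by organ, for all peaks and for peaks at or above and under the list's median pileup. Circles are Hox peaks with 95% Wilson intervals and counts below, squares the whole lists; every Hox interval includes the square beside it.

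Of the 12 sites without a mutant heart peak, 8 were at least 2-fold lower in the mutant in brain or lung, whereas 0 of the 9 sites kept in mutant heart were. The same difference was present genome-wide, at 44.6% and 8.59% of the sites that, like these, were in every wild-type list and in mutant brain and lung. The 8 sites were 5′ of Hoxa13, Hoxa11-Hoxa10, the first and the fourth of the Hoxb13-Hoxb9 sites, Hoxb5-Hoxb4, Hoxc6-Hoxc5, the third site 5′ of Hoxd13 and the first Hoxd11-Hoxd10 site. By the deposited fold enrichment, which divides by local background, fewer of the 8 were at least 2-fold lower, and in brain alone. These were 5′ of Hoxa13, the first and the fourth Hoxb13-Hoxb9 sites and the first Hoxd11-Hoxd10 site. The wild-type heart pileups of the 8 sites ran from 15 to 47, and those of all 12 from 12 to 47, against 21 to 49 at the 9 kept sites. Pileups thus overlapped between the groups. The heart sites not retained also included weak ones, with a median pileup of 21.5 against 35 at those kept. Split at the list's median pileup, 6 of 8 wild-type heart Hox peaks at or above it and 3 of 13 under it had a mutant peak. The list gave 74.0% and 27.0%. Beyond this split, the part of pileup in the loss was not tested.

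The gap between Hoxb13 and Hoxb9, which contains no other Hox gene, held 5 sites. They lay 4.44, 29.7, 40.8, 46.1 and 67.4 kb from the start of Hoxb13, and the core motifs of all 5 pointed against the genes, away from Hoxb9. None had a peak in mutant heart, and 4 had one in wild-type heart. The first had a level of 25.8 and 11.4 in brain, 8.64 in wild-type heart, and 47.2 and 18.3 in lung. The fourth had 57.0 and 13.9 in brain, 12.1 in wild-type heart, and 99.6 and 30.9 in lung. Its brain log2 ratio of -2.04 (-2.70 to -1.42) was the lowest of the Hox sites in brain, and its lung ratio was -1.69 (-2.21 to -1.20).
The third, with 34.6 and 20.8 in brain, 22.5 in wild-type heart, and 123 and 78.7 in lung, gave log2 ratios of -0.74 (-1.34 to -0.14) and -0.64 (-0.99 to -0.29). The fifth, in an exon of the non-coding gene Gm53, went the other way in brain, with 15.9 and 27.2, a log2 ratio of 0.78 (0.09 to 1.50), beside 78.0 and 72.3 in lung. The second was listed in wild-type lung alone, at 17.7. Neighbouring sites of the same gap and the same motif direction therefore differed in their ratios, and in brain the fourth and the fifth had intervals that did not meet.

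The region 5′ of Hoxd13, which leads to Evx2 and to limb and genital enhancers, held 3 sites. The first, in an exon of Evx2, had a level of 14.7 and 24.7 in brain, 6.92 in wild-type heart, and 35.4 and 37.2 in lung. The third, at 4567 bp from Hoxd13, had 51.7 and 27.7 in brain, 10.9 in wild-type heart, and 90.4 and 21.1 in lung. Its log2 ratio was -0.90 (-1.41 to -0.40) in brain and -2.10 (-2.72 to -1.52) in lung, whereas the second site gave 0.21 (-0.23 to 0.65) and 0.20 (-0.29 to 0.69). The third was 1 of 5 Hox sites at which no core motif was called, although a motif matrix built from mutant brain peaks called one there.
At the 5′ end of Hoxa, the site 9836 bp before Hoxa13 also had no core motif. Its level was 38.2 and 11.4 in brain, 15.0 in wild-type heart, and 62.2 and 14.0 in lung, with log2 ratios of -1.75 (-2.50 to -1.04) and -2.15 (-2.92 to -1.44). Between Hoxd11 and Hoxd10, the first site had 27.0 and 9.40 in brain, 11.5 in wild-type heart, and 51.1 and 9.83 in lung. Its lung log2 ratio of -2.38 (-3.31 to -1.55) was the lowest of the Hox sites in lung, and in brain it was -1.52 (-2.38 to -0.72).

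Over the 25 Hox sites in both brain lists, the mutant level relative to the wild type had a median log2 ratio of -0.35, where that of all 28896 shared brain sites was -0.04. In heart the medians were -0.18 at 9 Hox sites and -0.25 at all 10609, and in lung -0.11 at 27 Hox sites and -0.36 at all 29221. At least 2-fold lower were 5 Hox sites (brain), 0 (heart) and 8 (lung), against 11.3%, 7.12% and 20.9% of all shared sites. At least 2-fold higher were 1, 0 and 0, against 3.19%, 0.17% and 0.524%.
The counting interval lay wholly below the median of all sites at 9 Hox sites in brain, 0 in heart and 8 in lung, where the backgrounds were 19.8%, 6.24% and 23.1%. It lay wholly above at 5, 0 and 7, against 20.1%, 4.33% and 19.2%. The sign of a median depends on the scaling. Dividing pileups by their median over the genome sites in all 6 lists shifts every site of an organ alike, and gave Hox medians of 0.093 in lung, 0.10 in heart and -0.45 in brain beside -0.16, 0.019 and -0.15 over all sites. Hox minus all sites was thus the same in both scalings, at 0.25, 0.077 and -0.31. The deposited fold enrichment gave Hox medians of 1.11 in lung, 0.18 in heart and -0.21 in brain beside 0.61, -0.20 and 0.042 over all sites. By this measure the 8 sites lower in lung were less than 2-fold lower. They ran from 12.2 and 6.19 at the first Hoxd11-Hoxd10 site to 17.3 and 15.3 at Hoxa5-Hoxa4. In brain, Hoxb5-Hoxb4 was then less than 2-fold lower (12.8 and 6.78) and Hoxb6-Hoxb5 at least 2-fold lower (19.9 and 9.69). The wild-type lung list had a raised local background at its Hox peaks, at a median of 3.40 times and up to 14.3 times the lowest of the list, against a median of 1.00 in mutant lung, and fold enrichment divides by that background. Over all peaks of the lung lists the medians were 2.38 in wild type and 1.09 in mutant. What raised the background was not tested.

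**Figure D4:**
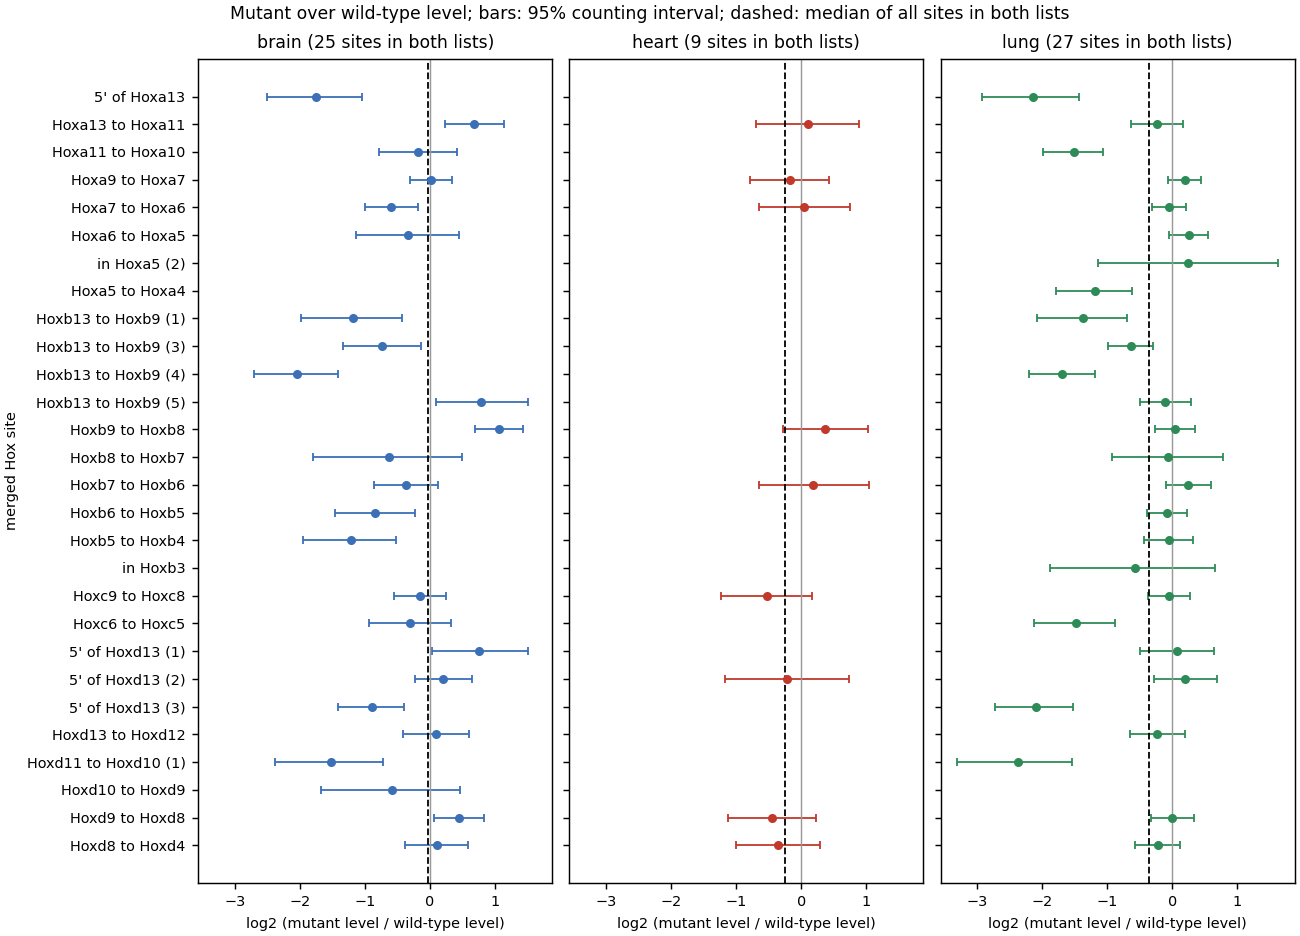
Log2 ratio of mutant to wild-type level (x axis) at each Hox site in both lists of an organ, with 95% counting intervals; the solid line is 0 and the dashed line the median of all shared sites. In lung, 8 sites stand apart to the left between -1.19 and -2.38, and the other sites lie between -0.64 and 0.25.

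In lung the ratios fell into separate ranges, with 8 sites from -2.38 to -1.19 and the other 19 from -0.64 to 0.25. The 4 sites at least 2-fold lower in both brain and lung were those 5′ of Hoxa13, the first and the fourth of Hoxb13-Hoxb9, and the first of Hoxd11-Hoxd10. Hoxb5-Hoxb4 was so in brain alone, at -1.22 (-1.95 to -0.52) beside -0.05 (-0.43 to 0.32) in lung. Another 3 were so in lung and not in brain, namely Hoxa11-Hoxa10, Hoxc6-Hoxc5 and the third site 5′ of Hoxd13. Over all sites with both ratios, 7.37% were lower in both organs, 3.29% in brain and not lung, and 12.6% in lung and not brain. Hoxa5-Hoxa4, the remaining site lower in lung, had no mutant brain peak. Over the 24 Hox sites with both ratios, brain and lung ratios had a Pearson r of 0.65 and a Spearman rho of 0.52, and the r over all 23528 such sites was 0.67. These sites share their libraries, so the values are descriptions.

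By position, the median log2 ratio was -0.59 at 13 sites 5′ of paralogue 9 and -0.33 at 12 sites 3′ of it in brain, and -1.004 at 12 sites and -0.05 at 15 sites in lung. Among heart sites with a peak in both lists the order was the other, with -0.060 at 2 sites 5′ of it and -0.18 at 7 sites 3′ of it. These medians leave out sites without a mutant peak. Of the 12 wild-type heart sites without one, all but Hoxb5-Hoxb4 and Hoxc6-Hoxc5 lay 5′ of paralogue 9. The ranges overlapped, from -2.38 to 0.20 on the 5′ side and from -1.48 to 0.25 on the 3′ side in lung, and from -2.04 to 0.78 and from -1.22 to 1.06 in brain. On the 3′ side, the sites at least 2-fold lower were Hoxa5-Hoxa4 and Hoxc6-Hoxc5 in lung and Hoxb5-Hoxb4 in brain.

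Within 1 kb of a Hox start lay 10 sites, 4 of them at group 5 genes and 3 at group 10 genes, and the strong ones of these groups had unlike values. Beside group 10 starts, the Hoxa11-Hoxa10 site (chr6:52240259-52240768) lay 313 bp from Hoxa10, in a non-coding exon of that gene, and the second Hoxd11-Hoxd10 site (chr2:74691549-74691960) 154 bp from Hoxd10. The Hoxc11-Hoxc10 site lay at the start of Hoxc10. These genes act in the lumbar spine and hindlimb, and Hoxb has no group 10 gene. At Hoxa10 the level was 28.8 and 25.2 in brain, 27.1 in wild-type heart with no mutant peak, and 108 and 37.9 in lung. Its heart value stood at the 89.7 percentile of the wild-type heart list, the highest of the 12 sites without a mutant heart peak. At Hoxc10 the level was 15.3 in wild-type brain and 41.3 in wild-type lung, with no mutant peak in either and none in heart. At Hoxd10 the site was listed in wild-type lung alone, at 30.8. All 3 were thus lower or unlisted in mutant lung, and they were picked after their values were seen. Of all wild-type lung peaks 67.0% had a mutant peak, and 20.9% of shared lung sites were at least 2-fold lower.
Beside group 5 starts, Hoxa6-Hoxa5 (chr6:52204424-52204983) lay 61 bp from Hoxa5, Hoxb6-Hoxb5 (chr11:96303007-96303440) 261 bp from Hoxb5 and Hoxc6-Hoxc5 (chr15:103013459-103013796) 117 bp from Hoxc5. Hoxa5 and Hoxb5 are known to act in the growth and branching of the lung. At Hoxa5 the level was 17.6 and 13.9 in brain and 113 and 135 in lung, with no heart peak in either genotype. Its lung log2 ratio of 0.25 (-0.05 to 0.56) was the highest of the Hox sites in lung. At Hoxb5 it was 34.6 and 19.3 in brain and 124 and 117 in lung, again with no heart peak. At Hoxc5 it was 27.0 and 21.8 in brain, 13.8 in wild-type heart with no mutant peak, and 59.0 and 21.1 in lung, where its log2 ratio was -1.48 (-2.13 to -0.87). The core motifs called beside group 5 starts at these 3 sites, and those at Hoxa10 and Hoxc10, all pointed with the genes. The remaining site within 1 kb of a group 5 start, the mutant-lung site in the Hoxa5 coding exon, had a motif against the genes.
Hoxa11-Hoxa10 (chr6:52240537-52240585, minus strand): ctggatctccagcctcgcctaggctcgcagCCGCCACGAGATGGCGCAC
Hoxa6-Hoxa5 (chr6:52204655-52204703, minus strand): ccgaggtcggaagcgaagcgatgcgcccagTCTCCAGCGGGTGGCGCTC
Hoxb6-Hoxb5 (chr11:96303212-96303260, plus strand): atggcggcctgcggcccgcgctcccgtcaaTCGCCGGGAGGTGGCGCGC
Hoxc6-Hoxc5 (chr15:103013669-103013717, plus strand): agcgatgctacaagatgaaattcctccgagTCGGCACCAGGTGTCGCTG
The cores beside Hoxa5 and Hoxb5 shared 14 of 19 bases, those beside Hoxa5 and Hoxc5 13 and those beside Hoxb5 and Hoxc5 12. The group 5 sequences are shown because sites at matching places in different clusters had unlike lung ratios. The Hoxa11-Hoxa10 site, at a group 10 start, lacked its mutant heart peak.

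In wild-type animals the level in lung relative to brain had a median log2 ratio of 1.03 at 28 Hox sites and 0.94 at all 30653 sites in both lists. Hoxa6-Hoxa5 was highest at 2.69, and the fifth Hoxb13-Hoxb9 site also reached 4-fold, 2 of 28 against a background of 4.98%. In the mutant, Hoxa6-Hoxa5 was at 3.28, and Hoxb6-Hoxb5 and Hoxb5-Hoxb4 also reached 4-fold, 3 of 24 against 2.78%, with medians of 0.83 over Hox sites and 0.56 over all sites. By the deposited fold enrichment, wild-type brain and lung gave 11.5 and 15.3 at Hoxa6-Hoxa5, less than 4-fold apart. They gave 10.4 and 10.5 at the Hoxb13-Hoxb9 site named here. The wild-type lung background at these sites was 6.80 times the lowest of its list. Mutant values were 7.88 and 79.6 at Hoxa6-Hoxa5, 9.69 and 68.9 at Hoxb6-Hoxb5, and 6.78 and 44.1 at Hoxb5-Hoxb4. These stayed at least 4-fold apart. By rank of pileup within its own list, Hoxa6-Hoxa5 stood at the 39.6 percentile in wild-type brain and 88.7 in wild-type lung. In the mutants it stood at 43.3 and 93.9. In heart relative to brain the Hox median was -1.31 and that of all sites -1.27. Hoxa11-Hoxa10 had the highest such ratio at -0.09, and the third site 5′ of Hoxd13 the lowest at -2.24.

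**Figure D5:**
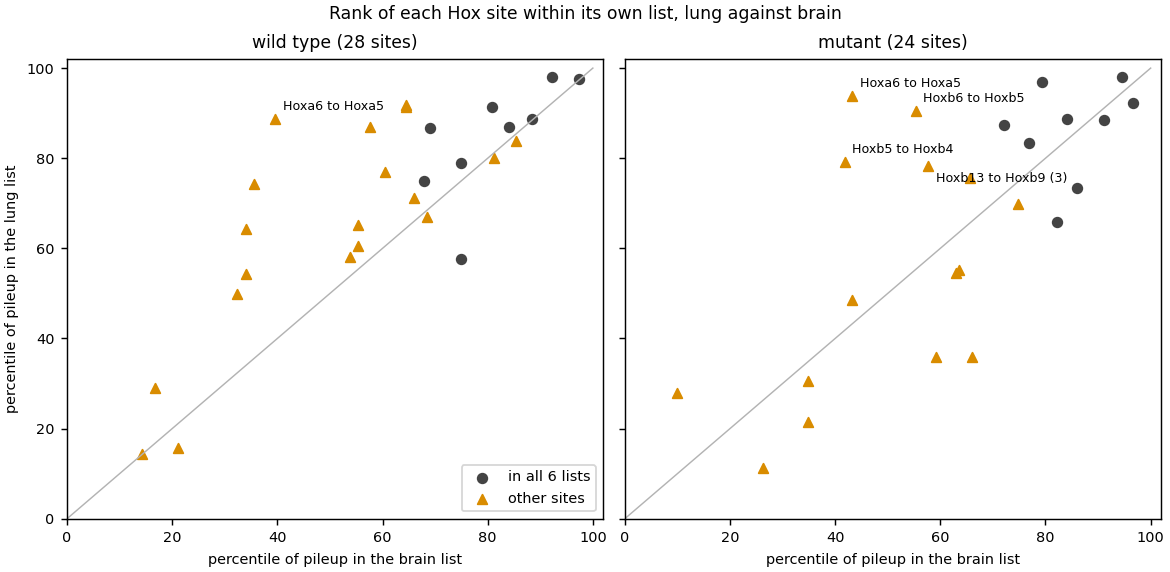
Percentile of summit pileup of each Hox site within its own list, lung (y axis) against brain (x axis), in wild type and mutant; circles are sites in all 6 lists and triangles other sites, and the line marks equal rank. Hoxa6-Hoxa5 lies far above the line in both panels, at 39.6 and 88.7 in wild type and 43.3 and 93.9 in mutant.

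A pair of sites had a wild-type peak in more than 1 organ and no mutant peak in those organs. Besides Hoxc11-Hoxc10, described above, this was the site in the coding exon of Hoxd10, at a level of 9.39 in wild-type brain and 10.5 in wild-type lung, close to the lower end of both lists (14.2 and 14.3 percentile).
in Hoxd10 (chr2:74694225-74694273, minus strand, against the genes): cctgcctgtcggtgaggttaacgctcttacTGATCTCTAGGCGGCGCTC
The third brain loss, Hoxa5-Hoxa4, stood at 15.3 in wild-type brain and kept a lung peak, with 57.7 and 25.3. Of the 10 lung losses, 7 were listed in wild-type lung alone, the others being Hoxc11-Hoxc10, within Hoxd10 and Hoxd10-Hoxd9 (chr2:74697382-74697944). The last lay 28 bp from the start of Hoxd9, at 11.2 and 7.42 in brain and 11.1 in wild-type lung, and its 49 bases are shown as a start site whose peak was near the limit of the lists.
Hoxd10-Hoxd9 (chr2:74697737-74697785, plus strand, with the genes): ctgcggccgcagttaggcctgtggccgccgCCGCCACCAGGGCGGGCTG
In all, 11 sites were in lung lists alone, and 5 of them lay in coding exons, of Hoxa5, Hoxa4, Hoxb4, Hoxb3 and Hoxc10. Those with a wild-type peak had wild-type levels of 4.59 to 30.8. Of all merged sites, 18.8% were in lung lists alone, and 4.15% of those had their summit in a coding exon. The 2 sites of mutant lists alone were both of mutant lung, the one between Hoxb4 and Hoxb3 in a Hoxb3 intron with a pileup of 11 and a level of 7.73, and the one in the Hoxa5 coding exon with a pileup of 8 and a level of 5.62. Both stood at or under the 6.33 percentile of their list. Peaks that came and went between the genotypes in lung were thus mostly weak, with Hoxc11-Hoxc10 (wild-type pileup 63) the strongest of the lung losses.

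A core motif was called at 34 of the 39 Hox sites, 87.2% (73.3 to 94.4), against 89.3% of all merged sites. In windows 1100 bp beside the summits it was called at 4 Hox sites, 10.3%, and beside 13.7% of all sites. The 34 motifs were split in direction, 16 with the genes and 18 against them. On the 5′ side of paralogue 9, 12 of the motifs pointed against the genes and 4 with them. On its 3′ side, 12 pointed with the genes and 6 against them. Of motifs at sites with at least 2 wild-type peaks, 9 of 13 pointed against the genes 5′ of paralogue 9 and 10 of 13 with the genes 3′ of it. In Hoxb the numbers were 4 of 4 against on the 5′ side and 3 of 5 with on the 3′ side, and in Hoxd 4 of 6 against and 2 of 2 with. In Hoxa they were 1 of 2 against and 3 of 4 with, and in Hoxc 0 of 1 against and 2 of 2 with. The 5′ majority at sites with at least 2 wild-type peaks thus came from Hoxb and Hoxd. The exceptions on the 5′ side were Hoxa11-Hoxa10, Hoxc11-Hoxc10, the first of Hoxd11-Hoxd10 and Hoxd10-Hoxd9. On the 3′ side, among sites with at least 2 wild-type peaks, they were Hoxa7-Hoxa6, Hoxb8-Hoxb7 and Hoxb7-Hoxb6.

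The upstream motif, searched as TGCAGTNCC with at most 2 mismatches on the strand of the core motif and within 30 bp 5′ of it, was found at 6 of the 34 core-motif sites, 17.6% (8.35 to 33.5). Over all sites with a core motif the share was 26.0%, and the mirrored window 3′ of the core motif held it at 1 Hox site (2.94%) and at 13.3% of all sites. The Hox sites with it were Hoxa9-Hoxa7 (0 mismatches), Hoxb7-Hoxb6 (1 mismatch) and Hoxa5-Hoxa4, Hoxc11-Hoxc10, Hoxc6-Hoxc5 and Hoxd8-Hoxd4 (2 mismatches each). At Hoxa9-Hoxa7 the match, visible in the flank printed above, ended 6 bp before the core motif, where 79.2% of the 5566 genome sites with at most 1 mismatch had a gap of 5 bp. The gap was also 6 bp at Hoxa5-Hoxa4 and Hoxc6-Hoxc5, and it was 12 bp at Hoxc11-Hoxc10, 19 bp at Hoxb7-Hoxb6 and 20 bp at Hoxd8-Hoxd4. The Hoxa9-Hoxa7 site kept its level in every organ, with log2 ratios of 0.01 (-0.30 to 0.34) in brain, -0.18 (-0.78 to 0.43) in heart and 0.19 (-0.06 to 0.44) in lung. Of the other 5, Hoxb7-Hoxb6 and Hoxd8-Hoxd4 were in all 6 lists, Hoxc11-Hoxc10 lacked both mutant peaks, and Hoxa5-Hoxa4 and Hoxc6-Hoxc5 were lower in mutant lung. Hoxa5-Hoxa4 also lacked its mutant brain peak, and Hoxc6-Hoxc5 its mutant heart peak. Of the 4 sites whose level was at least 2-fold lower in brain and in lung, none had an upstream motif by this search, and the one 5′ of Hoxa13 had no core motif. A match is a description of letters, and its absence says only that these letters were not in the window.

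For comparison, CTCF peaks were counted within 1 kb of the start sites of 13 Hox cofactor and regulator genes. In wild type and mutant, the numbers of these genes with a peak were 3 and 5 (brain), 2 and 0 (heart) and 3 and 3 (lung). Of all 22500 genes with coding sequence, 23.5% and 33.2%, 14.2% and 9.92%, and 32.4% and 26.8% had one in the same order. Meis3 and Pknox2, which encode homeodomain cofactors of Hox proteins, had a peak in all lists but mutant heart. The level at Meis3 was 39.3 and 55.4 in brain, 8.07 in wild-type heart, and 25.6 and 21.1 in lung. At Pknox2 the highest level was 28.2 and 74.2 in brain, 16.7 in wild-type heart, and 65.5 and 79.4 in lung. Pbx4 had a peak in both genotypes of brain and lung, and Pbx3 and Meis2 in mutant brain alone, at 9.90 and 3.96. The start sites of Pbx2, Meis1, Pknox1, Cdx1, Cdx2, Cdx4, Evx1 and Evx2 had none in any list.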

How the data were processed

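CTCF ChIP-seq libraries of brain, heart and lung at E18.5 gave 6 peak lists, 1 for each organ and genotype, and the 6 input libraries had no list used here. Per the study's methods and the submitters' processing notes, the authors used Trim Galore for trimming, Bowtie2 for alignment to mouse (mm10) and human (hg38) sequence, and MACS2 to call peaks per library. Which library served as control is not given in the sources used here. The deposited score derives from the q-value and is left aside. In the deposited fold enrichment, a ratio, summit pileup and local background each carry a pseudocount of 1. Both p-values and q-values were deposited as −log10 values. Since the sources give no read counts, the whole-number pileup and the local background were solved from fold enrichment and p-value, which matched to within 0.1% of the −log10 p-value for 100% of lines in every list.

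Lines of one region were counted once, at the summit of highest fold enrichment. Peaks overlapped with at least 1 bp. Hox windows and gene classes came from the basic GENCODE release M21 on GRCm38, and intervals between paralogues from principal coding spans. Shares carry 95% Wilson intervals and ratios exact 95% binomial counting intervals. With 1 library per group no test was made between genotypes. A 19-column core motif matrix was built on the 2000 most enriched peaks of wild-type brain and called at p of 1e-04 or less within 100 bp of the summit on both strands. The upstream motif was sought within 30 bp. The recovery of pileups and the core motif calls were tested on simulated data, and the upstream motif search was not.

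Sites named with all values were, by rule, up to 3 per cluster with peaks in all 6 lists and the highest mean wild-type pileup, those with at least 2 wild-type peaks lacking the mutant peak in at least 2 of those organs, the strongest mutant-only site, and the lowest and highest ratio in each organ. Sites at group 5 and group 10 starts, 5′ of Hoxa13 and Hoxd13 and between Hoxb13 and Hoxb9 were added after their values were seen. The members, lists and rules were chosen with earlier results of these data known. Alternatives were other window ends, a −log10 q of at least 5, every summit line, lists of equal length, other overlaps, site definitions, scalings and motif settings. Software was scipy 1.17.1, pandas 2.3.3, numpy 2.4.6 and matplotlib 3.10.9 under Python 3.11.15. The sequence of a further site and the counts of a further cofactor gene are not reported here.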

Additional observations from a re-analysis of the deposited data

Results flagged for a closer look

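The local background at the Hox peaks of the wild-type lung list, a quantity the comparisons of level do not use, had a median of 3.40 times the lowest background of that list, against 1.00 in mutant lung. It reached 14.3 times at Hoxa7-Hoxa6 and 12.2 times at Hoxa9-Hoxa7, the Hox sites of highest level in that list. Over the whole wild-type lung list the median was 2.38, and over the whole mutant lung list 1.09. It stood out as a signal outside the main measurement, and its cause was not tested.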

How the results depend on the processing

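Of 61 recomputed values, 54 stayed within 1.5 times the count, or within the 95% interval of the share or median, and 7 did not. With both lists of an organ reduced to equal length by q-value, wild-type heart held 9 Hox peaks, of which 77.8% had a mutant peak, and 92.3% of the wild-type lung Hox peaks had one. Dividing pileups by their median over sites in all 6 lists gave a lung median log2 ratio of 0.093, and the deposited fold enrichment gave 1.11. The heart median of -0.18 became 0.10 and 0.18. The first setting shifts all sites of an organ alike, so Hox minus all sites kept its value (lung 0.25, heart 0.077). The core motif share was 64.1% at p of 1e-05 or less, against 70.7% of all sites, and 5.88% of core-motif sites had an upstream motif with at most 1 mismatch, against 11.1% of all. The number of sites in all 6 lists was 9 with linked summits and at a −log10 q of at least 5, and was not recomputed with lists of equal length. Within an organ no paired analysis was possible, because each genotype had 1 library. Pairing genotypes over the 3 organs can be done and was not run. A peak missing from a list can lie just under the calling threshold.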
